A study of Mus musculus with 9 samples.

Results

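CTCF occupancy was described at 7 genes that mark radial glia and neural stem cells (NSCs): the filament genes *Nes* and *Vim*, the lipid carrier *Fabp7*, the surface genes *Slc1a3*, *Prom1* and *Egfr*, and the RNA-binding gene *Msi1*. The members are the merged CTCF peaks that overlap one of these genes, or the 10000 bp on either side of it, by at least 1 base in GRCm38 with the GENCODE M21 annotation. There were 65 such peaks of 225769 in all. *Egfr* had 32 of them, *Prom1* 17, *Slc1a3* 6, *Msi1* 4, *Nes* 3, *Vim* 2 and *Fabp7* 1. Neighbouring peaks of a gene share that gene and its surrounding chromatin, so they are not replicates of a genotype. CTCF levels do not report transcription, so the label that these genes are expressed in NSCs could not be checked with these values.

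The study asked how a mutation and a loss of SMCHD1 act on CTCF binding in primary female mouse NSCs from E14.5 embryonic cortex, grown in EGF and bFGF at 20 ng/mL each, with a separate cell line behind each CTCF library of a genotype. Of the 8 CTCF libraries, 3 came from MommeD43-GFP lines, in which both *Smchd1* alleles carry the MommeD43 point mutation on a GFP-tagged protein. Another 2 came from *Smchd1*del/del lines, called null here, made in culture from floxed cells with a Cre retrovirus and drug selection. The remaining 3 were controls with the same GFP tag and no mutation (Smchd1GFP), and 1 control line also gave an input library that has no value in the table. The null lines carry no GFP tag and went through viral Cre and selection, while the controls and MommeD43-GFP lines did not, so loss of SMCHD1 and these differences cannot be told apart in any comparison with the null.

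CTCF is a zinc finger protein that binds an asymmetric DNA motif, and pairs of bound sites that face each other tend to anchor the loops formed by cohesin. Radial glia are the elongated progenitors of the developing cortex: nestin and vimentin build their intermediate filaments, and the fatty acid carrier FABP7, the glutamate transporter SLC1A3, the membrane protein prominin-1, the EGF receptor and the RNA-binding protein Musashi-1 are among their usual markers. EGF receptor signalling also keeps such cells dividing in culture.

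Each level is the authors' mean over a genotype's libraries of log2 reads per M (reads per 1000000 reads of the library), counted over the whole peak. The table used here gives only this pooled value for a genotype, so no SD, n or p-value stands behind any level or difference. The errors after ± are 1 SE of read counting, computed from reads recovered from the values, and they leave out the spread between cell lines. Recovered library sizes were 49.2 M reads in MommeD43-GFP, 49.98 M in the null and 41.7 M in control, and 34.5% to 34.8% of those reads lay in peaks. The median peak had 34.9, 34.5 and 30.0 reads per library in the same order.

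An exact core CTCF motif of 12 positions, searched on both strands, occurred in 4 of the 65 peaks. These 4 sites are shown because they mark where, within peaks up to 9000 bp long, the best match to the protein's binding sequence lies. All windows are GRCm38, on the strand that reads the motif, with the 12 motif positions in capitals.

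Nes peak 2 (chr3:87970250-87970289, plus strand): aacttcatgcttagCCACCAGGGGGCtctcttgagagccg
Nes peak 3 (chr3:87987130-87987169, minus strand): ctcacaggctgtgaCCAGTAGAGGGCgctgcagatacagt
Slc1a3 peak 5 (chr15:8627261-8627300, plus strand): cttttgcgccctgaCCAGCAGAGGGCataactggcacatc
Prom1 peak 7 (chr5:44048754-44048793, plus strand): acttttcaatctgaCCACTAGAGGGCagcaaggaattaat

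The *Nes* peak 2 site lay at -824 bp from the gene's main start, outside any annotated gene, and was the 1 of 4 read in the gene's own direction. The *Nes* peak 3 and *Slc1a3* peak 5 sites were in no annotated gene, and the *Prom1* peak 7 site was in a *Prom1* intron. None of the 4 windows overlapped an annotated exon or lay in repeat-masked sequence. The core motif was present in 6.15% of the members and in 3.79% of all peaks. With at most 1 mismatch it was present in 20 members, which is 30.8%, against 22.6% of all peaks.

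A second set of sites is shown because 5 of the 29 member sites with at most 1 mismatch spelled the same 12 letters, CCAGAAGAGGGC, which match the core motif at 11 positions. The capitals again mark the motif.

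Nes peak 2 (chr3:87969369-87969408, plus strand): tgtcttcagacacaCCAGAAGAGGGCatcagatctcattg
Slc1a3 peak 2 (chr15:8697316-8697355, plus strand): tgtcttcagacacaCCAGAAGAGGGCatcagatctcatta
Msi1 peak 3 (chr5:115442858-115442897, minus strand): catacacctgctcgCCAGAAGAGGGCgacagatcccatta
Msi1 peak 4 (chr5:115463570-115463609, minus strand): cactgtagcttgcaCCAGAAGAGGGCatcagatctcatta
Msi1 peak 4 (chr5:115465790-115465829, minus strand): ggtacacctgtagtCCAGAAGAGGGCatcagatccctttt

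All 5 copies lay in repeat-masked sequence, and pairs of these 40-base windows were identical at 24 to 39 positions. The *Slc1a3* copy was intronic, the *Msi1* peak 3 copy was inside *Msi1* but not in an exon, and the other 3 were in no annotated gene. Over all peaks the same letters occurred 19304 times, 99.7% of them repeat-masked, in 16713 peaks or 7.40% of the total. The median level of those peaks was 1.03, against -0.53 for all peaks. Longer peaks collect more reads and have more room for these letters, and this comparison was not corrected for length. Mouse B2 short interspersed repeats are known to have spread CTCF motifs through the genome, and the repeat class of these 5 copies was not looked up.

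For the peaks whose best match had 1 mismatch, 1 site each is shown from the tallest peak of *Fabp7*, *Prom1* and *Msi1*, which had no exact motif, and 1 from *Egfr*. *Fabp7* peak 1, *Msi1* peak 3 and *Egfr* peak 19 each held 2 such sites. *Vim* peak 1, the tallest of *Vim*, also had a best match with 1 mismatch, not printed because it overlaps an exon. The first 3 lay outside exons, and the *Egfr* site lay between exons within the gene.

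Fabp7 peak 1 (chr10:57794957-57794996, minus strand): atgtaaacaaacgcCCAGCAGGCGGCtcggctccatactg
Prom1 peak 17 (chr5:43990510-43990549, minus strand): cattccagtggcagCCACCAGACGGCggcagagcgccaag
Msi1 peak 3 (chr5:115441632-115441671, minus strand): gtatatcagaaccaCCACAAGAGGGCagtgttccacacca
Egfr peak 19 (chr11:16863532-16863571, plus strand): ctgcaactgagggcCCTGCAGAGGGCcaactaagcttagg

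Motif and level went together among the members. Of the 16 members at a mean level of 1 or more, 4 (25%) held the core motif and 15 (93.8%) held it with at most 1 mismatch, against 18.5% and 71.2% of all peaks at that level. The exception was *Egfr* peak 21, whose best match had 10 of 12 positions. Of the 49 members below that level, 0 held the core motif and 5 (10.2%) held it with at most 1 mismatch, against 0.985% and 13.3% of all such peaks. The tall peaks were also longer, with a median of 3300 bp against 750 bp for the weaker members, and a longer peak has more room for a match. The level of 1 was chosen after the values were seen. In RefSeq promoters of GRCm38, short windows around each start, the core motif occurred in 0.557% of 32851 and the 1-mismatch form in 4.33%. Neither was found in the 7 promoters listed for *Nes*, *Vim*, *Fabp7*, *Slc1a3*, *Prom1* (2 promoters) and *Egfr*, and *Msi1* had no entry.

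**Figure D1:**
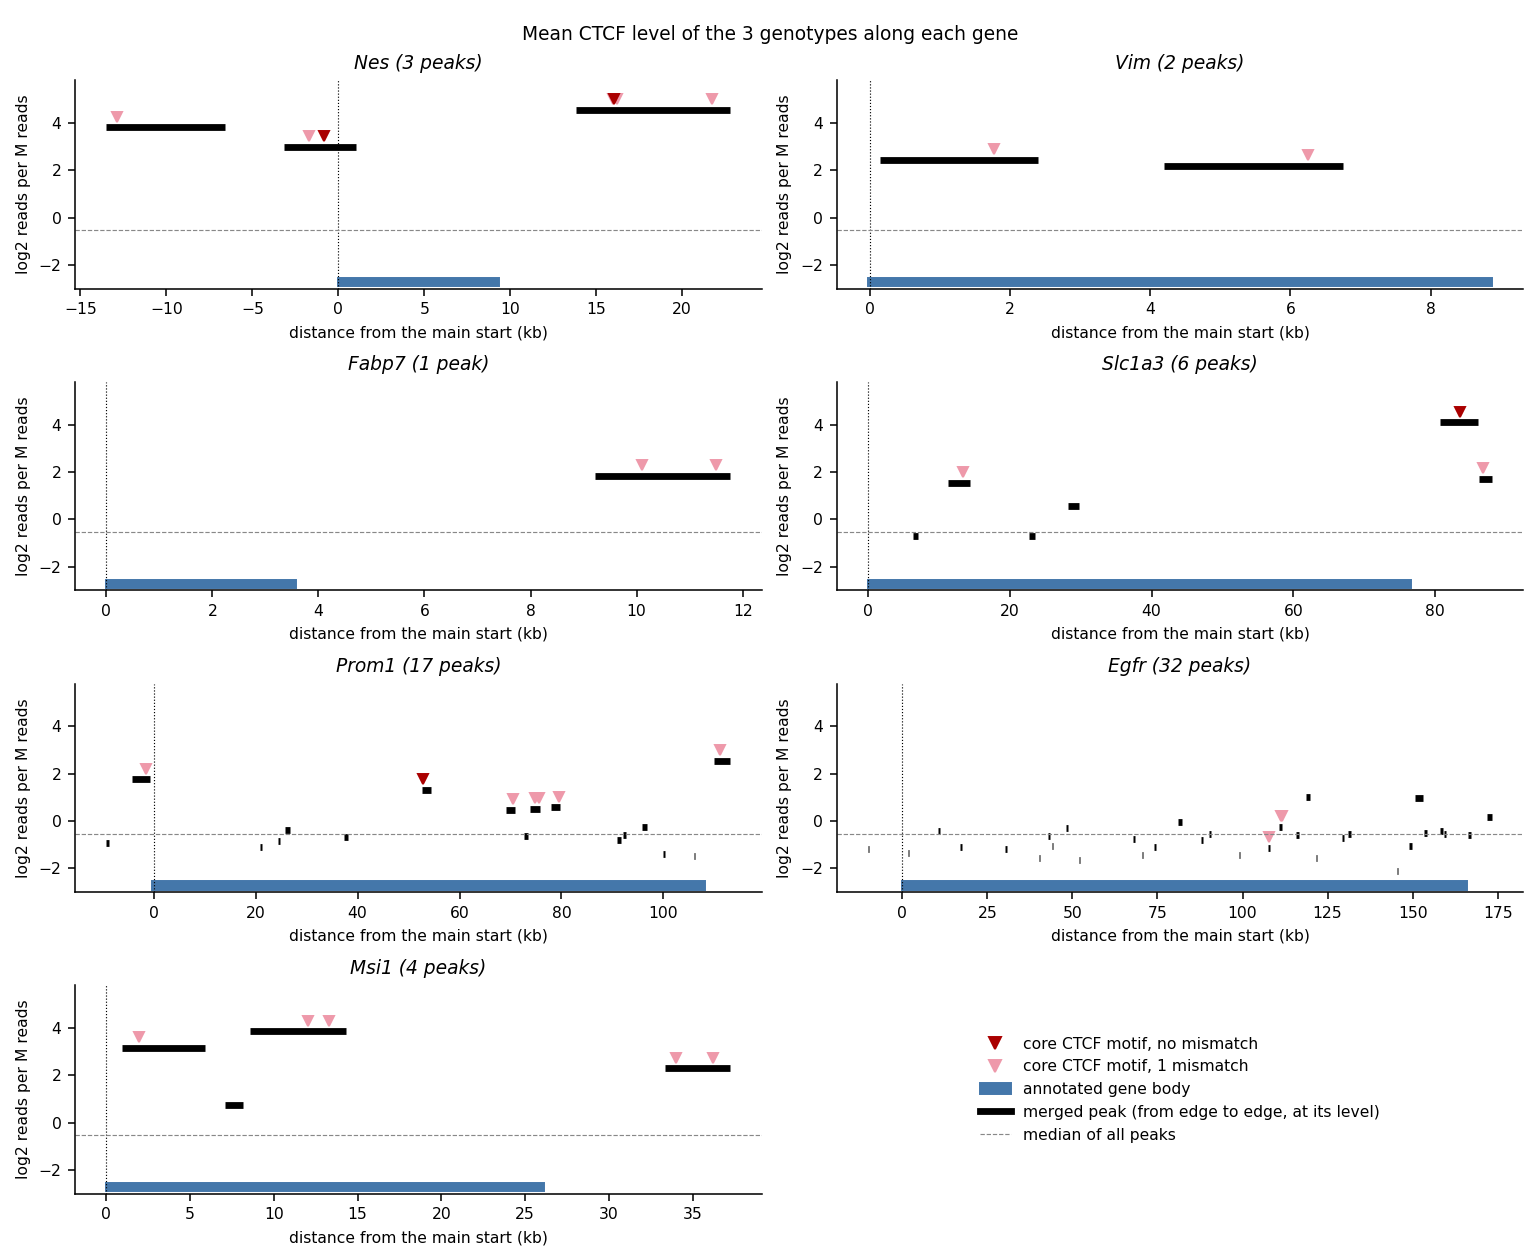
Mean CTCF level of the 3 genotypes (y axis, log2 reads per M) against distance in kb from each gene's main transcription start (x axis, in the direction of transcription). Black segments are merged peaks from edge to edge, blue bars the annotated gene body, dark red and pink triangles core CTCF motifs with 0 and 1 mismatch, and the dashed line the median of all peaks; the tall segments of *Nes*, *Slc1a3*, *Prom1* and *Fabp7* after the gene's end stand out, as do the many low, narrow peaks of *Egfr*.

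The 2 filament genes had few peaks, each well above the median of all peaks. *Nes* peak 3, the tallest of all 65, was 9000 bp long and began in the downstream flank. The peak reached past the 10000 bp flank and overlapped part of the 3' neighbour *Bcan*, the gene for the proteoglycan brevican. Its level was 4.50 in MommeD43-GFP, 4.51 in the null and 4.69 in control, at percentile 99.8 of all peaks. *Nes* peak 1, 6900 bp long and upstream, lay partly beyond the flank on its side. It had 3.77 in MommeD43-GFP, 3.79 in the null and 3.88 in control. *Nes* peak 2 covered the main start, with its centre at -1042 bp from it, and overlapped the predicted gene Gm3745. It had 2.95 in MommeD43-GFP, 3.04 in the null and 3.00 in control. All 3 *Nes* peaks were thus lower in MommeD43-GFP than in control, by 0.19 ± 0.04, 0.11 ± 0.05 and 0.04 ± 0.06 on the log2 scale for peaks 3, 1 and 2. In the null, peak 3 was 0.18 ± 0.04 lower than in control. These are small differences: adding the 3 peaks as linear reads per M gave 44.0 in MommeD43-GFP, 44.8 in the null and 48.4 in control.

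*Vim* peak 1 began 149 bp after the main start and covered 2250 bp with annotated first-exon, UTR and coding sequence. It had 2.32 in MommeD43-GFP, 2.72 in the null and 2.33 in control, so the null alone stood apart, 0.39 ± 0.08 above control. *Vim* peak 2, centred 5474 bp into the gene over coding exons, had 2.34 in MommeD43-GFP, 2.29 in the null and 1.93 in control. There both mutants were above control, by 0.41 ± 0.08 for MommeD43-GFP and 0.37 ± 0.09 for the null. *Vim* was the member with the largest relative difference in summed reads per M, which were 10.0 in MommeD43-GFP, 11.5 in the null and 8.81 in control.

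*Fabp7* had a single peak, and it did not overlap the gene. The 2550 bp peak began 9220 bp after the main start, where it overlapped *Smpdl3a*, a phosphodiesterase family gene. Its level was 1.89 in MommeD43-GFP, 1.93 in the null and 1.72 in control, which put MommeD43-GFP 0.17 ± 0.09 and the null 0.21 ± 0.10 above control. With no peak in its body or at its start, *Fabp7* had 4.24 peaks per 100 kb of window, at percentile 17.2 of 21938 protein-coding genes.

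*Slc1a3*, whose product clears glutamate, had 6 peaks over a 96.6 kb window, the tallest of them beyond its 3' end. *Slc1a3* peak 5 covered 5400 bp of the downstream flank, with 3.99 in MommeD43-GFP, 4.22 in the null and 4.07 in control. The null was 0.15 ± 0.05 above control there, and MommeD43-GFP 0.07 ± 0.04 below it. Adjoining it, *Slc1a3* peak 6 differed by less than 1 counting error between any pair of genotypes, at 1.73 in MommeD43-GFP, 1.75 in the null and 1.68 in control. No peak covered the main start, and the nearest, peak 1, was a 600 bp intronic peak that began 6414 bp into the gene. *Slc1a3* peak 1 had -0.62 in MommeD43-GFP, -0.21 in the null and -1.23 in control. That placed the null 1.02 ± 0.25 above control, just past 2-fold, from about 43.2 reads per library in the null and 17.8 in control. *Slc1a3* peak 3, which is exonic, was higher in both mutants, with -0.41 in MommeD43-GFP, -0.56 in the null and -1.13 in control. The other 2, *Slc1a3* peaks 2 and 4, went opposite ways: peak 2 had 1.61 in MommeD43-GFP, 1.61 in the null and 1.41 in control. *Slc1a3* peak 4 had 0.44 in MommeD43-GFP, 0.56 in the null and 0.75 in control, so both mutants were lower there.

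*Prom1* encodes the membrane protein known as CD133. Its 17 peaks spanned a 128 kb window and ranged in mean level from -1.45 to 2.53. The tallest was again in the downstream flank: *Prom1* peak 17 had 2.56 in MommeD43-GFP, 2.70 in the null and 2.33 in control. *Prom1* peak 2 ended at -720 bp from the main start and overlapped the predicted genes Gm16401 and Gm42966. It had 1.97 in MommeD43-GFP, 1.75 in the null and 1.57 in control, a difference of 0.41 ± 0.10 between MommeD43-GFP and control. *Prom1* peak 7, which holds the exact motif printed above, had 1.16 in MommeD43-GFP, 1.63 in the null and 1.12 in control. Here the null was 0.50 ± 0.12 above control, and MommeD43-GFP was 0.47 ± 0.11 below the null. The weak peaks of *Prom1* differed in both directions. *Prom1* peak 13, intronic, had -0.38 in MommeD43-GFP, -0.33 in the null and -1.10 in control, so MommeD43-GFP was 0.72 ± 0.23 and the null 0.77 ± 0.25 above control. *Prom1* peak 6, also intronic, had -0.97 in MommeD43-GFP, -0.79 in the null and -0.22 in control, and its difference of -0.75 ± 0.22 was the lowest of any member for MommeD43-GFP against control. *Prom1* peak 14, over a coding exon, had -0.41 in MommeD43-GFP, -0.54 in the null and 0.14 in control, which made it the lowest for the null against control at -0.69 ± 0.21. *Prom1* peak 12 had -0.55 in MommeD43-GFP, -1.27 in the null and -0.61 in control, the highest for MommeD43-GFP against the null at 0.72 ± 0.27. Over the 17 peaks MommeD43-GFP was above control at 6 and below at 11, with a median difference of -0.20, and the null above at 10 and below at 7, with a median of 0.06. Summed reads per M were 22.2 in MommeD43-GFP, 23.5 in the null and 22.1 in control.

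*Egfr*, the receptor for the EGF in the medium, had the most peaks and the lowest by level over the whole peak. At 17.2 peaks per 100 kb it was at percentile 83.6 of protein-coding genes, where the median was 10.1. Its tallest peak was nevertheless only at percentile 28.8 of genes' tallest peaks. That peak, *Egfr* peak 21, centred 119264 bp into the gene and overlapping a coding exon, had 1.07 in MommeD43-GFP, 0.91 in the null and 1.11 in control. Of the 32 peaks, 23 were below the median level of all peaks, with no division by length. Per kb of peak, the 32 ranged from percentile 1.13 (peak 26) to 89.4 (peak 21) of all peaks. The 300 bp peak 1 was at percentile 21.0 by level and 88.6 per kb, and the 750 bp peak 26 at 26.5 and 1.13. No peak covered the main start, and the nearest was peak 2, 300 bp long, with -1.22 in MommeD43-GFP, -1.04 in the null and -1.74 in control. Only 2 of the 32 peaks, peaks 18 and 19, held the core motif with at most 1 mismatch. Peaks 11 to 13 also overlap *Egfros*, an annotated gene inside *Egfr*.

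Most *Egfr* peaks were higher in both mutants than in control. MommeD43-GFP was above control at 22 of 32 with a median difference of 0.22, against 50.8% of all peaks above control. The null was above control at 24 of 32 with a median of 0.22, against 46.6% of all peaks. In each mutant most of these single differences from control were within 2 counting errors. With 1 read per M added to each value, the medians were 0.084 for MommeD43-GFP and 0.097 for the null. After centring within bins of GC content they were 0.16 and 0.19. Differences ranged from -0.61 (peak 20) to 0.94 (peak 25) for MommeD43-GFP against control and from -0.37 (peak 20) to 1.74 (peak 25) for the null. Between the mutants the peaks were evenly divided, 16 above and 16 below. Both mutants were set against the same control value, so a low control value at a peak places both of them above it. Summed reads per M were 21.9 in MommeD43-GFP, 23.3 in the null and 19.8 in control.

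**Figure D2:**
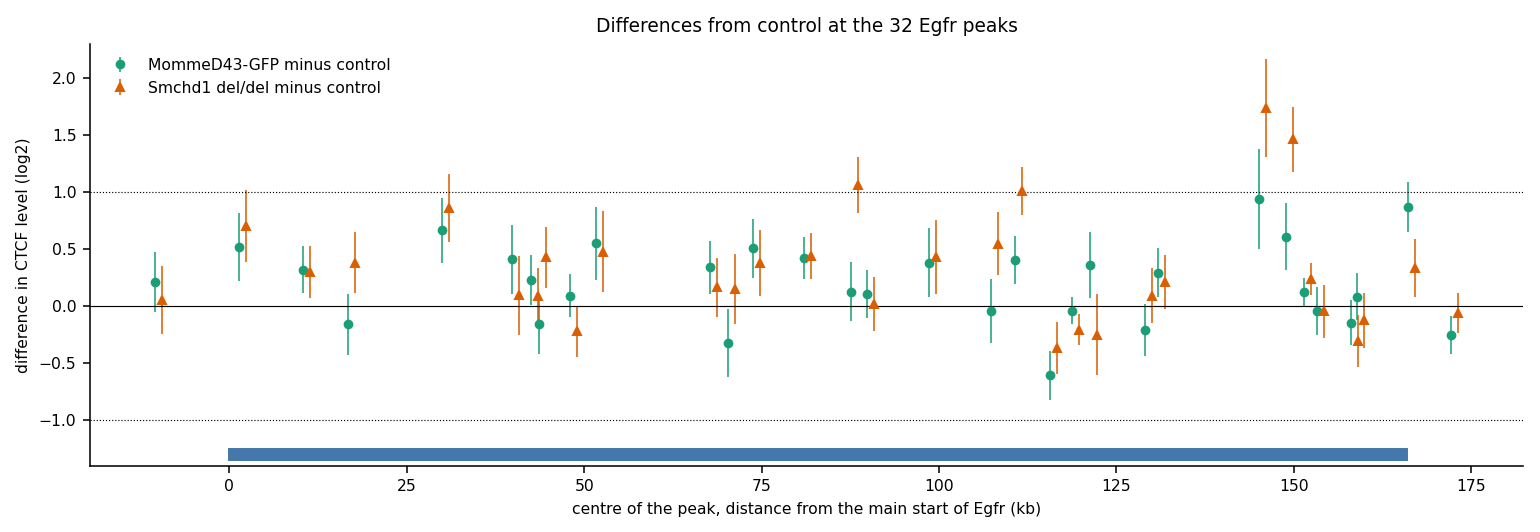
Difference in CTCF level from control (y axis, log2) at the 32 *Egfr* peaks, by distance of the peak's centre from the main start in kb (x axis). Green circles are MommeD43-GFP minus control, orange triangles the null minus control, bars 1 counting SE, dotted lines a 2-fold difference and the blue bar the gene body; 4 null values exceed the upper dotted line and no MommeD43-GFP value does.

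*Msi1* peaks were strong in all genotypes, and no difference from control was larger than the -0.23 of peak 1. *Msi1* peak 3, 5700 bp long and inside the gene, had 3.92 in MommeD43-GFP, 3.87 in the null and 3.78 in control. *Msi1* peak 1 began 952 bp after the main start and had 3.07 in MommeD43-GFP, 3.15 in the null and 3.30 in control, so both mutants were lower there, MommeD43-GFP by 0.23 ± 0.06. *Msi1* peak 4, partly in the downstream flank and partly beyond it, overlapped *Pla2g1b*, a secreted phospholipase gene. It had 2.39 in MommeD43-GFP, 2.18 in the null and 2.31 in control. The weakest, *Msi1* peak 2, had 0.76 in MommeD43-GFP, 0.61 in the null and 0.82 in control. Summed reads per M were within a narrow range, at 30.5 in MommeD43-GFP, 29.5 in the null and 30.4 in control.

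Because long peaks collect more reads, the tallest peaks were also ordered by mean level per kb of peak, on the log2 scale. *Slc1a3* peak 5 then came first at 1.66, followed by *Nes* peak 3 at 1.39, *Msi1* peak 3 at 1.35, *Vim* peak 1 at 1.28, *Prom1* peak 17 at 0.87, *Egfr* peak 21 at 0.60 and *Fabp7* peak 1 at 0.49. The tallest peak of each of the 7 genes was the same peak with and without division by length. In 4 of the 7 genes (*Nes*, *Fabp7*, *Slc1a3*, *Prom1*) it lay downstream of the gene, in the flank or, for *Nes*, partly beyond it. As the tallest peak within the window of a protein-coding gene, those of *Nes*, *Slc1a3* and *Msi1* were at percentiles 96.2, 90.9 and 87.1 of genes, those of *Prom1*, *Vim* and *Fabp7* at 55.5, 53.8 and 41.3. These last percentiles are not divided by length.

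**Figure D3:**
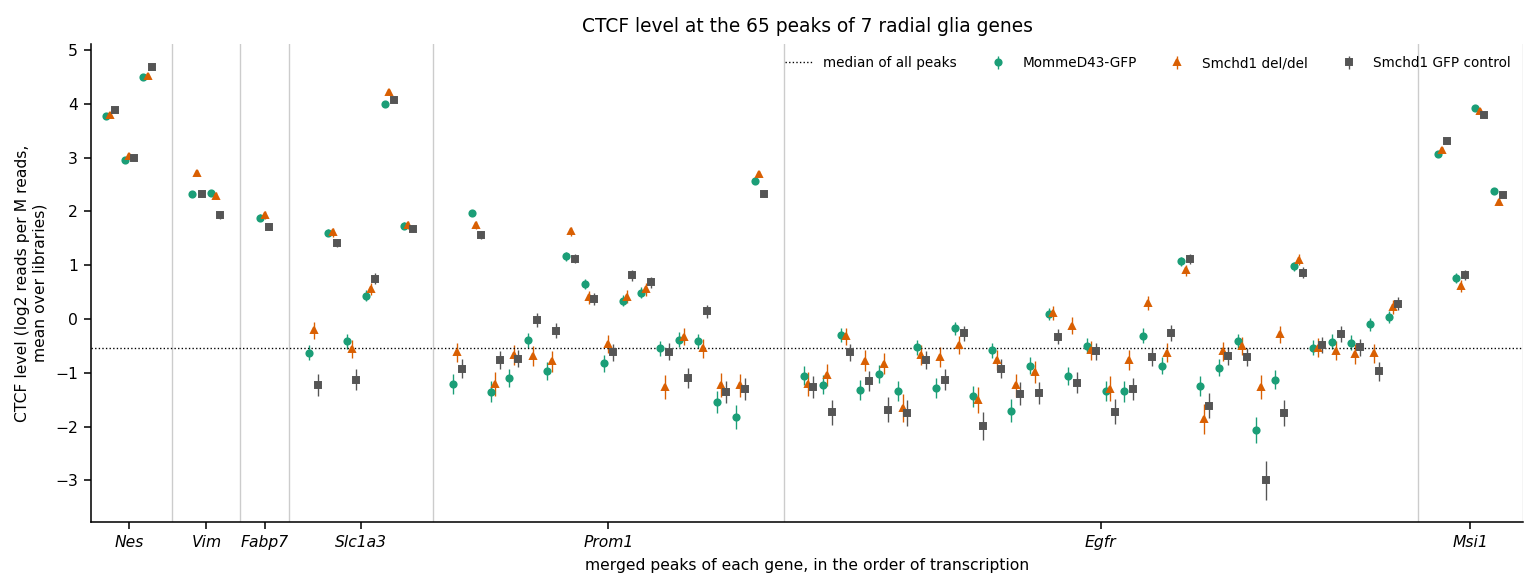
CTCF level (y axis, log2 reads per M, authors' mean over libraries) at the 65 peaks, grouped by gene and ordered along transcription (x axis). Green circles are MommeD43-GFP, orange triangles the null and grey squares control, left to right within a peak, with bars of 1 counting SE; the 3 genotypes nearly coincide at the tall peaks of *Nes*, *Slc1a3* and *Msi1*, and spread at the weak peaks of *Prom1* and *Egfr*.

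For MommeD43-GFP against control, no member differed 2-fold. The count was 0 of 65 higher and 0 lower, against 2.08% and 0.718% of all peaks. The highest member was *Egfr* peak 25 at 0.94 ± 0.44, from 11.7 reads per library in MommeD43-GFP and 5.20 in control. *Egfr* peak 31, with -0.10 in MommeD43-GFP, -0.64 in the null and -0.97 in control, was next at 0.87 ± 0.22. By more than 2 counting errors, 12 members (18.5%) were higher and 10 (15.4%) lower, against 16.6% and 14.7% of all peaks. The members' shares were thus close to the background of the whole table. This measure is a ruler for read counting and not a test across libraries. The median difference was 0.08 over the members and 0.01 over all peaks, with 36 members above 0 and 29 below, which is 55.4% above, against 50.8% of all peaks. The median was -0.06 without the *Egfr* peaks.

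For the null against control, 5 members (7.69%) passed 2-fold upward and 0 downward, against 3.31% and 1.85% of all peaks. Besides *Slc1a3* peak 1 these were 4 *Egfr* peaks. *Egfr* peak 25 had -2.07 in MommeD43-GFP, -1.27 in the null and -3.003 in control, a difference of 1.74 ± 0.43 for the null that rests on 20.8 reads per library in the null and 5.20 in control. *Egfr* peak 26 had -1.13 in MommeD43-GFP, -0.28 in the null and -1.74 in control, a difference of 1.46 ± 0.28. *Egfr* peaks 25 and 26 are neighbours near the 3' end of the gene. *Egfr* peak 15 had -1.06 in MommeD43-GFP, -0.12 in the null and -1.19 in control, so MommeD43-GFP was near control and the null 1.06 ± 0.25 above it. *Egfr* peak 19, over a coding exon, had -0.31 in MommeD43-GFP, 0.30 in the null and -0.71 in control, 1.01 ± 0.21 for the null. The next member, *Egfr* peak 5, was below the threshold at 0.86 ± 0.30. Of the 5, 4 were below the median level of all peaks and *Egfr* peak 19 was above it. With 1 read per M added to each value, 0 of 65 reached 2-fold. A peak at or below 1 read per M in the null could not reach it at that setting. That held for *Slc1a3* peak 1 and *Egfr* peaks 15, 25 and 26. After centring within bins of equal GC content 3 members reached 2-fold, without *Slc1a3* peak 1 and *Egfr* peak 19. Peaks were called in each genotype and then merged, so a weak peak could enter the table through the genotype in which it was high.

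By more than 2 counting errors, 16 members (24.6%) were higher in the null and 7 (10.8%) lower, against 17.1% and 17.8% of all peaks. The null was above control at 44 members and below at 21, which is 67.7% above, against 46.6% of all peaks. The median difference was 0.13 over the members and -0.04 over all peaks. Among the 34 members below the median level, 28 were above 0 (82.4%) with a median of 0.19, against 47.3% of all peaks below that level. Among the 31 at or above it 16 were above 0 (51.6%) with a median of 0.03, against 46.0% of all such peaks. Most of the 34 weaker members were *Egfr* peaks, and most of the others were *Prom1* peaks. Without the *Egfr* peaks the median over the members was 0.07.

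For MommeD43-GFP against the null, 0 members passed 2-fold in either direction, against 1.26% of all peaks upward and 1.08% downward. By more than 2 counting errors 15 members (23.1%) were apart, 4 higher and 11 lower, against 28.0% of all peaks in either direction. The lowest was *Egfr* peak 15 at -0.94 ± 0.23, close to the 2-fold threshold. The median was -0.05 over the members and 0.03 over all peaks, with 26 members above 0 and 39 below, which is 40% above, against 53.9% of all peaks.

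**Figure D4:**
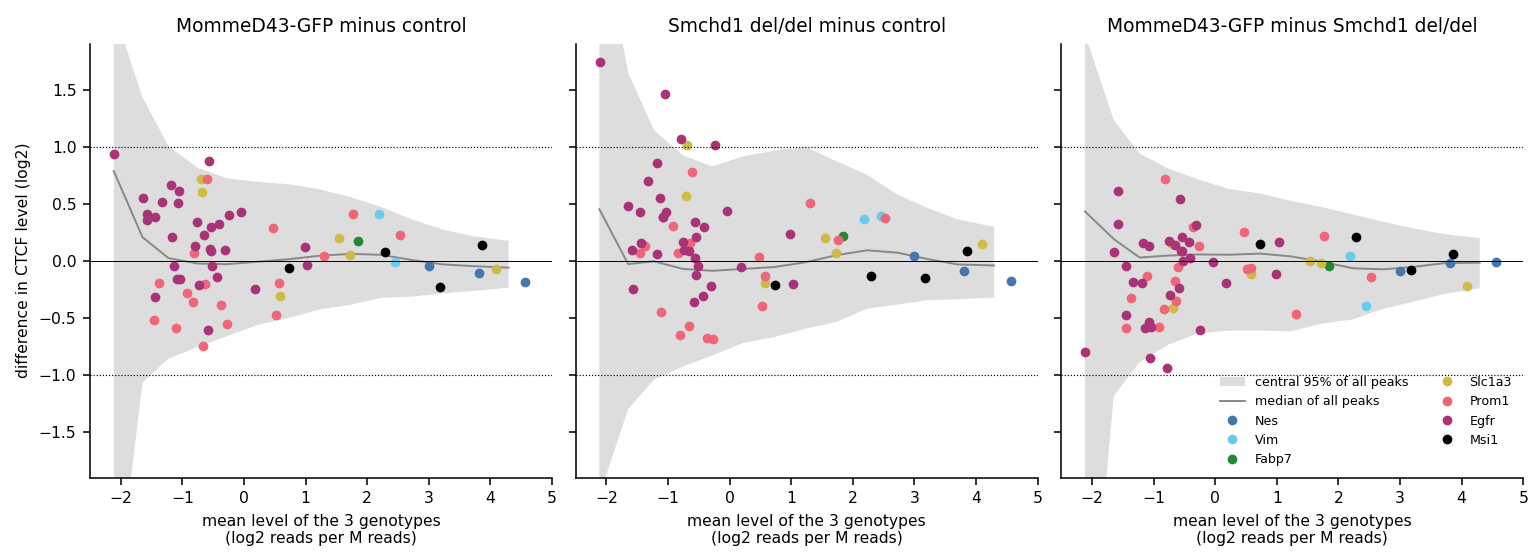
Difference in CTCF level (y axis, log2) against the mean level of the 3 genotypes (x axis, log2 reads per M) for MommeD43-GFP minus control, the null minus control, and MommeD43-GFP minus the null. Coloured points are the members by gene, the grey band the central 95% of all peaks in bins of level, the grey line their median and the dotted lines a 2-fold difference; 1, 4 and 1 of the 65 members lie outside the band in the 3 panels.

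Read against peaks of similar level, most members lay within the central 95% of all peaks. Such a band leaves out some peaks on each side by construction. In bins of mean level, the central 95% of all peaks left out 1 member above and 0 below for MommeD43-GFP against control, *Egfr* peak 31. For the null against control it left out 4 above and 0 below, *Slc1a3* peak 1 and *Egfr* peaks 15, 19 and 26. *Egfr* peak 25, with the highest difference, was inside the wide band of its low level. For MommeD43-GFP against the null it left out 0 above and 1 below, *Egfr* peak 15.

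Related genes gave a wider frame, as 7 lists with 45 genes and 389 peaks: other intermediate filaments, fatty acid binding proteins, SLC1 transporters, *Prom2*, ERBB receptors and ligands, *Msi2*, and other radial glia surface and secreted genes. At 2-fold, 7 of the 389 peaks were higher and 1 lower in MommeD43-GFP than in control, against 2.08% and 0.718% of all peaks. In the null 11 were higher and 1 lower than in control, against 3.31% and 1.85% of all peaks. In MommeD43-GFP 3 were higher and 4 lower than in the null, against 1.26% and 1.08% of all peaks. None of these shares of the 389 was above that of all peaks. The 95 peaks of the ERBB receptors and ligands, the family of *Egfr*, had a median difference of 0.06 for MommeD43-GFP and -0.0034 for the null against control, with 4 and 3 peaks at least 2-fold higher and 1 and 0 at least 2-fold lower. The 51 peaks of the other intermediate filament genes had a median of 0.04 in both comparisons with control and none at 2-fold. The 3 peaks of *Prom2* were below control in MommeD43-GFP, with a median of -0.36, the lowest of the 7 lists, against -0.20 for the 17 peaks of *Prom1*. In the null against control the medians went opposite ways, -0.22 for *Prom2* and 0.06 for *Prom1*.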

How the data were processed

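CTCF ChIP-seq libraries (75 bp reads, 15 M cells per sample) were processed by the authors with Trim Galore 0.4.4, cutadapt 2.9, FastQC 0.11.8, Bowtie2 2.3.4.1, SAMtools 1.7 and R 4.2.0, per the labels and methods, on GRCm38. The authors called peaks per genotype in SeqMonk and merged them. Values were deposited on the log2 scale as reads over a peak per M of the library's reads, averaged by the authors within a genotype, with no division by peak length. A count of 0 was taken to have been entered as 0.9, and the lowest value of each column to hold 0 reads in every library. This gave the library sizes and counting errors. The lowest steps of each column fitted products of whole read counts over the libraries within 1%, a check that large products pass by construction. The 3 columns are pooled, so differences were computed with no test, and the input was not used.

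Named were all 7 genes and, of each, the tallest peak, the peak nearest the main (APPRIS principal) start, peaks at least 2-fold apart, the extremes of each comparison and peaks with the core motif. Members and lists were chosen with earlier results of these data known. Scripts were tested on simulated data. Alternatives were centring, quantile normalization, a level trend, GC bins, a level filter, a pseudocount, thresholds and flanks. Statistics ran in scipy 1.17.1 and statsmodels 0.14.6, tables in pandas 2.3.3 and numpy 2.4.6, and plots in matplotlib 3.10.9 under Python 3.11.15.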

Additional observations from a re-analysis of the deposited data

How the results depend on the processing

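No paired analysis was possible because the table gives 1 pooled value per genotype, and for the same reason no library could be left out. Of the summary results under the alternatives, 105 stayed within a limit set by counting error, an interval or 1.5-fold, and 27 were entered as past it. The first 2 limits treat neighbouring peaks as independent, which was not shown, so the tally is a description and not a measure of robustness. Counts of 0 that stayed 0 are among the 105. The change to levels per kb was entered as past a limit without one being computed. The median for MommeD43-GFP against control changed sign with the level filter and without *Egfr*. No single peak past 2-fold changed direction. These peaks were picked for large differences, and a pseudocount cannot reverse a sign, so this says little about robustness. For MommeD43-GFP against control the median of 0.08 became 0.036 with a pseudocount of 1, -0.0072 in members at or above the median level and -0.062 without *Egfr* (chosen after seeing the data), when 42.4% of peaks were above 0. At 1.5-fold, 7 were higher and 3 lower. For the null against control the median of 0.13 became 0.19 with centring, 0.053 with the pseudocount, 0.034 with the level filter (51.6% above 0), 0.087 with flanks of 50 kb and 0.068 without *Egfr*. Its 5 peaks at 2-fold became 0 with the pseudocount, 3 with GC bins, 1 with the level filter, 1 without *Egfr* and 8 at 1.5-fold, where 3 were lower. The pseudocount outcome was fixed in advance for peaks at or below 1 read per M in the null. For MommeD43-GFP against the null the median of -0.05 became -0.085 with centring and -0.093 with GC bins; 1 peak was 2-fold lower after the level trend was subtracted, and 2 were higher and 6 lower at 1.5-fold. Flanks of 50 kb gave 118 peaks and the level filter 31. The median member level of -0.54 became 0.016 per kb. The core motif with 1 mismatch gave 20 peaks. The cause of these shifts was not tested. Weak peaks hold few reads, and depth limits every difference reported for them; spread between cell lines is unknown here.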
